A study of Mus musculus with 40 samples.

Results

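Midbrain RNA of aSyn Tg and Wt mice was examined for 68 of 20805 genes in the RNA table, the chromatin remodeller and histone methylation genes. They were chosen by name alone: gene names that begin with Kmt or Kdm and a digit, Setd and a digit or b, Smarca to Smarce or Arid1 to Arid5, together with Chd1 to Chd9, Ehmt1 and Ehmt2. Histone methyltransferases write methyl groups on lysines of histone tails, and demethylases remove them. Methylation of H3K4 is a known mark of active promoters and enhancers, that of H3K9 and H3K27 of repressed chromatin, and that of H3K36 of transcribed gene bodies. SWI/SNF, CHD and ISWI remodellers use ATP to slide or evict nucleosomes, and mutations in many of these genes are known in human neurodevelopmental disorders. N6-methyladenosine (m6A) is a methyl mark on the RNA itself, read here on the transcripts of these genes.

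The methods describe the mice as male. They were homozygous [A30P] aSyn transgenic mice (aSyn Tg, genotype A30P alpha-synuclein +/+ in the labels) and wild-type C57BL/6J littermates (Wt), at 15 mo and at 3 mo. The labels list 5 input libraries (RNA set aside before the m6A immunoprecipitation) and 5 immunoprecipitated libraries per group, and the RNA table holds 19 of the input libraries, 5 for each group except Wt 3 mo with 4. The methods place the transgene under the Thy-1 promoter, which is active in many neurons, while the strain name they cite points to a Th promoter, so the cells that carry it cannot be told from these sources. The input is whole dissected midbrain, and in such bulk RNA fewer cells of a type and less RNA per cell cannot be told apart.

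The libraries held 2161940 to 4921154 reads in aSyn Tg 15 mo, 5042619 to 6623523 in aSyn Tg 3 mo, 3912667 to 5406387 in Wt 15 mo and 3622966 to 9185647 in Wt 3 mo. The 68 genes took 0.986% to 1.14% of reads in aSyn Tg 15 mo, 1.06% to 1.14% in aSyn Tg 3 mo, 1.08% to 1.12% in Wt 15 mo and 1.113% to 1.169% in Wt 3 mo. All 8 dopaminergic markers looked at, Th and Slc6a3 among them, were measured, with a summed level of 433 to 706 CPM (reads of a gene scaled to the reads of its library) in aSyn Tg 15 mo, 499 to 723 in aSyn Tg 3 mo, 398 to 703 in Wt 15 mo and 507 to 722 in Wt 3 mo. A pair of aSyn Tg 15 mo libraries stood apart. Library 5 had the fewest reads, and its 10 most abundant genes took 10.01% of them. Library 3 went against the male sex given in the methods, as the sex-chromosome genes described below show. Both were kept, since the labels give no reason to drop them, and beside the RNA results of aSyn Tg 15 mo mice the values without them are given where they differ in size or sign.

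m6A is deposited most often on the A of GGAC, and the sites shown here come from the strongest peaks and from the largest differences among the chromatin genes. A peak is a stretch of RNA with more immunoprecipitated than input reads, and its fold enrichment is that ratio. Each site is the GGAC followed by any base but G that lies nearest to the centre of its peak on the transcript strand. Those letters are in capitals, with 10 bases on each side, from GENCODE M21 transcripts (GRCm38, which is mm10, 5′ to 3′). The first 6 sites belong to the 6 genes with the highest fold enrichment.
Chd7, chr4:8866427-8866451, plus strand, coding sequence near the stop codon: agcactggcgGGACTccaaaacgcc
Arid1b, chr17:5342750-5342774, plus strand, coding: ttgcccagggGGACAcactggcggc
Chd9, chr8:91051538-91051562, plus strand, coding: aaaaaagaaaGGACAgagagccaaa
Arid1a, chr4:133753072-133753096, minus strand, coding: acaacatggcGGACAacaaagccct
Setd1a, chr7:127785377-127785401, plus strand, coding: gaagaagcccGGACTcccccacgcc
Setd5, chr6:113151449-113151473, plus strand, the last codons before the stop codon: gactcagacaGGACTttcctagggc
The other 4 sites lie in the peak of Kmt5a, the one gene of the set whose RNA passed the test in a comparison, and in intervals of Smarca4, Chd3 and Ehmt2 that rank among the largest m6A differences.
Kmt5a, chr5:124460732-124460756, plus strand, 3′UTR: ctccttcaaaGGACAaagtgccctc
Smarca4, chr9:21701127-21701151, plus strand, coding near the stop codon: agaaggcccaGGACCgactcaaggg
Chd3, chr11:69344180-69344204, minus strand, 3′UTR: cccttcaagaGGACCcctatctctc
Ehmt2, chr17:34903453-34903477, plus strand, coding: atgagcgggtGGACTctgacagcaa
The intervals with the largest differences in Kmt2a and Kmt2d held none of these letter runs. Over all peaks of the chromatin genes, 69.1% held such a run within 100 nt of the peak centre. Among peaks of all other genes the share was 68.7% in aSyn Tg 15 mo, 67.6% in aSyn Tg 3 mo, 67.2% in Wt 15 mo and 67.3% in Wt 3 mo, so the chromatin genes were close to the background.

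The chromatin genes were mostly expressed at a moderate level. Per kb of exon sequence, the highest were Smarcc2, a core scaffold subunit of SWI/SNF, at 109 CPM per kb, and Chd3, an ATPase of the NuRD complex, at 99.1. Smarca2, one of the SWI/SNF ATPases, followed at 76.8 CPM per kb, and the NuRD ATPases Chd4 and Chd5 had 74.7 and 65.0. Smarca4, the other SWI/SNF ATPase, had 55.8 CPM per kb.

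Among the methyltransferases, Ehmt2, which writes H3K9 methylation, led at 41.3 CPM per kb, followed by Setd7, which writes a single methyl group on H3K4 and on other proteins, at 38.1. Setd5, a SET domain gene, had 36.6 CPM per kb, and Kmt2a, which writes H3K4 methylation, had 34.0. The H4K20 methyltransferase Kmt5a had 16.6 CPM per kb.

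Of the demethylases, Kdm1a, which acts on H3K4, had the highest level at 30.8 CPM per kb, Kdm4a, which acts on H3K9 and H3K36, had 19.6, and Kdm6b, which removes H3K27 methylation, had 13.0. Smarcal1, an SNF2 enzyme known for rewinding DNA at stalled replication forks, had 32.2 CPM per kb, and Arid4b, a subunit of a histone deacetylase complex, had 27.9. The lowest level was that of Kdm4d at 1.16 CPM per kb. The antisense RNA Kdm6bos had deposited normalised counts of 1.202 to 6.185 over the 19 libraries. It was not tested, and if strand was not used in counting, its reads and those of Kdm6b cannot be told apart.

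Few chromatin genes differed in RNA level between the groups by the test used. Of the 68 genes, 64 had a mean count of at least 50 and entered the tests, 63 of them in the comparison of genotypes at 15 mo. In aSyn Tg mice at 15 mo against 3 mo, 0 of 64 passed edgeR's quasi-likelihood test (adjusted p up to 0.05 and a change of 1.2-fold or more), where 0.916% of 11024 genes did. In Wt mice at 15 mo against 3 mo, 1 of 64 passed, Kmt5a, which was lower, where 0.36% of 10820 genes did. Between aSyn Tg and Wt, 0 of 64 passed at 3 mo, where 0.834% of 11390 genes did, and 0 of 63 passed at 15 mo, where 0.219% of 10485 genes did. The interaction of genotype and age, which tests whether the age difference itself differed between genotypes, passed for 0 of 64 and for 0.00915% of 10924 genes. DESeq2 and limma voom called the same numbers of chromatin genes in each of these comparisons. Without libraries 3 and 5 of aSyn Tg 15 mo, edgeR again called 0 in aSyn Tg with age, between genotypes at 15 mo and for the interaction.

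At an unadjusted p of at most 0.05, the share of chromatin genes was below that of all genes in 3 of the 4 comparisons and for the interaction. They numbered 3 in aSyn Tg with age (4.69%, against 11.1% of all genes), 6 in Wt with age (9.38%, against 15.6%) and 6 between genotypes at 3 mo (9.38%, against 12%). Between genotypes at 15 mo they numbered 10 (15.9%, against 11.2%). The share fell below the background without aSyn Tg libraries 3 and 5 together (9.38%, against 10.2%). It also did so without Wt 15 mo library 3 (11.3%, against 14.2%), library 4 (7.94%, against 8.98%) or library 5 (8.06%, against 10.4%). With a mean count of at least 10 it was 10.4%, against 10.9%. It was above the background with DESeq2 (14.3%, against 10.1%) and limma voom (14.3%, against 11.1%). So it was with 1 factor of unwanted variation (23.8%, against 16.4%) and with 2 (23.8%, against 19.6%). All 4 groups in a single fit gave 18.8%, against 15.4%, and RLE size factors 14.3%, against 11.3%. With no filter on low counts it was 10.4%, against 10.4%. Leaving out any other single library kept the share above the background, except aSyn Tg 15 mo library 2 (11.5%, against 11.5%). For the interaction the chromatin genes numbered 4 (6.25%, against 10.5%). With 1 factor of unwanted variation their share was 12.5%, against 14.2%, and with 2 it was 17.2%, against 16.2%. The median log2 fold change of the chromatin genes was 0.00 for aSyn Tg mice with age, -0.01 for Wt mice with age, -0.02 between genotypes at 3 mo and 0.00 between genotypes at 15 mo. All genes tested had medians of 0.00, 0.00, 0.00 and 0.01 in the same order.

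The median size of the log2 fold change was 0.05 in aSyn Tg with age, 0.05 in ageing Wt, 0.04 between genotypes at 3 mo and 0.06 between genotypes at 15 mo, and over all genes tested it was 0.07, 0.08, 0.06 and 0.08. A difference of more than 1.2-fold was seen for 1 chromatin gene in aSyn Tg with age (1.56%, against 6.11% of all genes), 1 in Wt with age (1.56%, against 8.43%), none between genotypes at 3 mo (against 4.29%) and 1 between genotypes at 15 mo (1.59%, against 7.67%). Chromatin genes are more abundant than the typical gene, so genes of like count are the closer comparison. With a mean count of 1000 or more, the median range of the 4 group means was 0.102 on the log2 scale for 20 chromatin genes. For 959 other genes of that count it was 0.111. At 300 to 1000 reads this range was 0.101 against 0.128, at 100 to 300 it was 0.1335 against 0.1625, and at 50 to 100 it was 0.207 against 0.230. Within groups, the median SD of log2 CPM around the group mean was 0.062 for the same 20 chromatin genes and 0.083 for the 959 others. At 300 to 1000 reads it was 0.095 for 27 chromatin genes and 0.099 for 3266 others, at 100 to 300 it was 0.137 for 12 and 0.139 for 4349 others, and at 50 to 100 it was 0.170 for 5 and 0.200 for 2447 others.

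**Figure D1:**
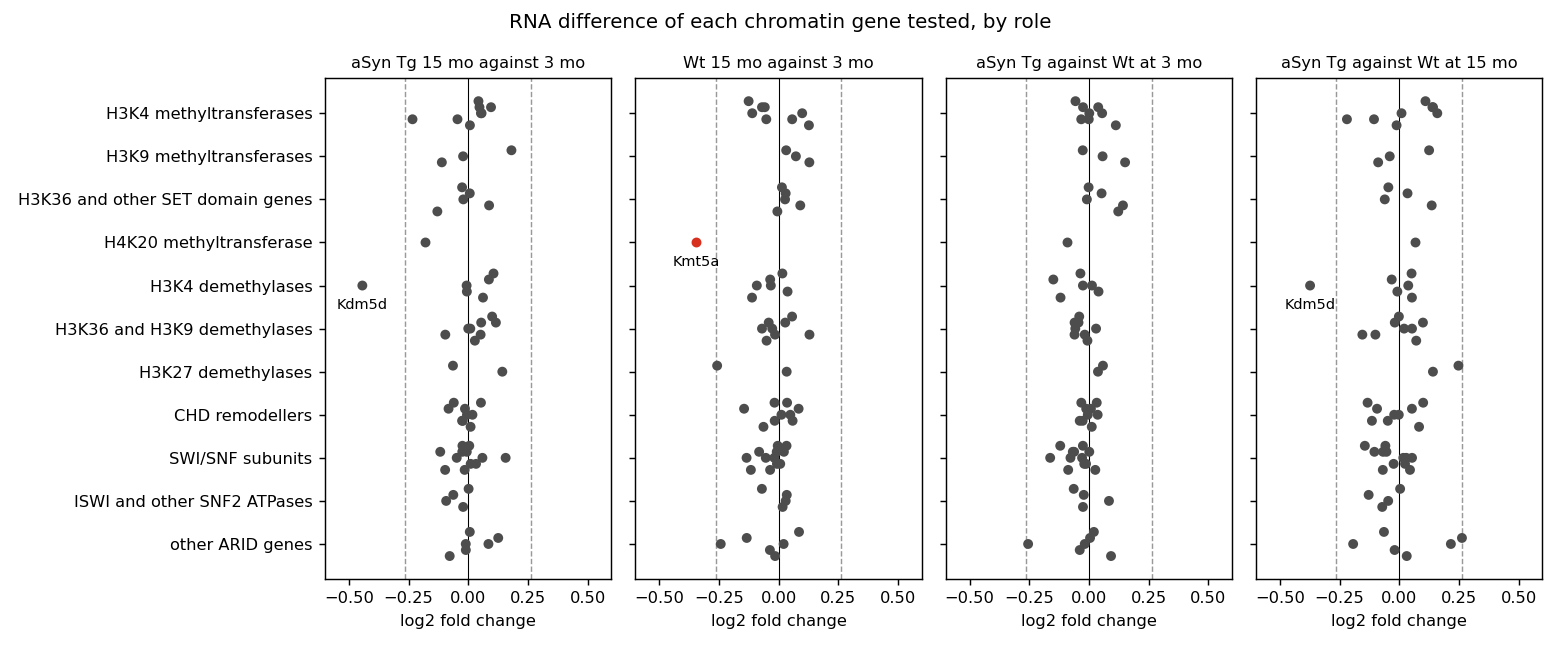
Log2 fold change of each chromatin gene tested in the 4 comparisons, arranged by role on the vertical axis, with dashed lines at 1.2-fold and the gene that passed the test in red. Most points lie well inside the lines, and the points beyond them are Kmt5a in Wt with age and Kdm5d in the comparisons that hold aSyn Tg 15 mo library 3.

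Kmt5a, the enzyme that adds the first methyl group to H4K20, fell in Wt mice with age. It had 44.4, 41.9, 48.0, 46.9 and 42.2 CPM in Wt 15 mo, against 57.2, 55.3, 60.4 and 52.9 CPM in Wt 3 mo. Every 15 mo library lay below every 3 mo library, with a log2 fold change of -0.34 (SE 0.067, adjusted p = 0.0492, edgeR's quasi-likelihood test). In aSyn Tg mice it had 48.9, 46.6, 48.0, 39.7 and 47.7 CPM at 15 mo, against 54.0, 53.5, 45.6, 53.5 and 58.8 CPM at 3 mo, and these groups overlapped (log2 fold change -0.18, SE 0.075, adjusted p = 0.372 by edgeR). The interaction did not pass (0.16, SE 0.098, adjusted p = 0.607 by edgeR), so a difference between genotypes in this decline was not shown. Without libraries 3 and 5 of aSyn Tg 15 mo, the log2 fold change in aSyn Tg was -0.14 (adjusted p = 0.508 by edgeR). The interaction was then 0.21 (adjusted p = 0.464 by edgeR). The call sits at the limit: leaving out a single library gave an edgeR adjusted p of 0.0592 to 0.177 in 8 of 9 cases, with a log2 fold change of -0.37 to -0.31 over all 9.

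Markers of other cell types differed in the same comparison. Cspg4 and Gpr17, of 4 markers tested for oligodendrocyte precursors, passed the test downward in Wt with age, and the summed level of the list was 223 to 250 CPM in Wt 15 mo and 291 to 303 CPM in Wt 3 mo, with none of the 4 at 0. In aSyn Tg the sum was 228 to 271 CPM at 15 mo and 239 to 270 CPM at 3 mo. The 4 endothelial markers summed to 203 to 213 CPM in Wt 15 mo and 227 to 267 CPM in Wt 3 mo, with none at 0, and none of the 3 tested passed. The 5 markers of the thalamus and its neighbours, which read how the midbrain was dissected, summed to 566 to 1138 CPM in Wt 15 mo and 461 to 740 CPM in Wt 3 mo, with none at 0. Their median log2 fold change was 0.74, and 4 of 5 had an unadjusted p up to 0.05. Dopaminergic markers had a median of -0.30 with 3 of 7 at that p, and neuronal markers 0.04 with 4 of 8, and none of these lists held a call. Of 6 astrocyte markers, Slc1a3 passed upward, with a median of 0.05 and 2 of 6 at that p. The part of these cells and of dissection in the Kmt5a result was not tested.

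The H3K4 methyltransferases, with Setd7 among them, did not pass the test. Setd7 had 269.9, 267.3, 232.8, 215.6 and 253.5 CPM in aSyn Tg 15 mo, against 307.4, 295.0, 278.0, 285.4 and 302.1 CPM in aSyn Tg 3 mo. The groups did not overlap, and the log2 fold change was -0.23 (SE 0.061, adjusted p = 0.115 by edgeR). Against Wt 15 mo, with 289.8, 306.1, 281.0, 275.8 and 299.3 CPM, the aSyn Tg 15 mo libraries were again all lower (-0.22, SE 0.066, adjusted p = 0.246 by edgeR). The fold stayed under 1.2 in both comparisons. DESeq2 gave an adjusted p of 0.0146 for the first, short of a call for that reason, and 0.0835 for the second. Without libraries 3 and 5, the values were -0.21 (adjusted p = 0.100 by edgeR) with age and -0.20 (adjusted p = 0.340 by edgeR) between genotypes. Glial markers moved in the same mice: Csf1r, C1qa and Cx3cr1 of 5 microglial markers tested and Gfap of 6 astrocyte markers passed upward in aSyn Tg with age, and Cldn11 of 6 oligodendrocyte markers downward. The 6 microglial markers listed summed to 163 to 249 CPM in aSyn Tg 15 mo and 130 to 137 CPM in aSyn Tg 3 mo, with none at 0. Between genotypes at 15 mo, Gfap passed upward and 5 of 6 astrocyte markers had an unadjusted p up to 0.05, with a median log2 fold change of -0.04. The thalamic markers had a median of -0.51, with 4 of 5 at that p, and summed to 487 to 723 CPM in aSyn Tg 15 mo and 566 to 1138 CPM in Wt 15 mo. The part of these cells in the values of Setd7, and in those of Smarca2 and Kdm6b between genotypes at 15 mo given below, was not tested.

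Kmt2d, an H3K4 methyltransferase of enhancers, had 569.8, 528.4, 554.6, 511.4 and 537.6 CPM in Wt 15 mo, against 593.4, 580.0, 597.4 and 588.3 CPM in Wt 3 mo, without overlap (log2 fold change -0.13, SE 0.040, adjusted p = 0.165 by edgeR). In aSyn Tg it had 572.6, 561.3, 586.2, 596.0 and 589.5 CPM at 15 mo, against 583.5, 547.1, 561.4, 587.8 and 550.5 CPM at 3 mo. Its interaction had the smallest unadjusted p of the set (0.0056; log2 difference 0.16, SE 0.053) and did not pass (adjusted p = 0.316 by edgeR). Kmt2a, which works with Menin at promoters, was higher in Wt with age: 558.3 to 594.3 CPM at 15 mo, against 506.6 to 558.1 CPM at 3 mo, without overlap (log2 fold change 0.10, adjusted p = 0.259 by edgeR).

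Kmt2e, a chromatin reader of the same family, differed by 0.13 on the log2 scale in Wt with age (adjusted p = 0.210 by edgeR) and by 0.11 between genotypes at 3 mo (adjusted p = 0.191 by edgeR). In that second comparison its libraries did not overlap, with 212.6 to 221.1 CPM in aSyn Tg and 193.2 to 208.2 CPM in Wt. Kmt2b, an H3K4 methyltransferase, had a log2 fold change of 0.14 between genotypes at 15 mo (adjusted p = 0.401 by edgeR). Setd1b, another, had an interaction of 0.16 (adjusted p = 0.458 by edgeR). The H3K4 methyltransferases as a group had a summed level of 2275 to 2372 CPM in aSyn Tg 15 mo, 2295 to 2388 in aSyn Tg 3 mo, 2300 to 2357 in Wt 15 mo and 2268 to 2360 in Wt 3 mo, and these ranges overlapped.

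Of the H3K9 methyltransferases, Setdb1, known for silencing retroelements, had its lowest edgeR adjusted p between genotypes at 3 mo (log2 fold change 0.15, SE 0.060, adjusted p = 0.319). Ehmt2 had 161.9, 169.4, 169.8, 252.3 and 170.2 CPM in aSyn Tg 15 mo, against 161.2, 153.3, 167.7, 167.0 and 156.1 CPM in aSyn Tg 3 mo. The high value is library 5. The log2 fold change was 0.18 with it (adjusted p = 0.516 by edgeR) and 0.06 without libraries 3 and 5 (adjusted p = 0.622 by edgeR).

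Among the demethylases, Kdm6b, which removes H3K27 methylation, had 92.3, 68.9, 71.4, 67.5 and 75.3 CPM in Wt 15 mo, against 92.3, 88.8, 90.8 and 86.3 CPM in Wt 3 mo. A single 15 mo library, number 1, lay in the 3 mo range, and the log2 fold change was -0.26 (SE 0.080, adjusted p = 0.153 by edgeR). Without that library it was -0.34 and passed (adjusted p = 0.0488 by edgeR). In aSyn Tg 15 mo the gene had 83.0, 96.5, 97.1, 75.9 and 88.5 CPM, a log2 difference of 0.25 from Wt 15 mo (SE 0.092, adjusted p = 0.339 by edgeR), and 0.26 without libraries 3 and 5. Kdm3b, an H3K9 demethylase, had a log2 fold change of 0.10 in aSyn Tg with age (adjusted p = 0.567 by edgeR, and 0.12 without libraries 3 and 5).

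The sex-chromosome demethylases set library 3 of aSyn Tg 15 mo apart. Kdm5d, the Y-linked H3K4 demethylase, had 0.396 CPM in library 3 (2 reads) and 53.2 to 70.4 CPM in the 18 other libraries. Kdm5c, its X-linked counterpart, had 135.9 CPM in library 3 and 84.3 to 111.6 CPM elsewhere, and Kdm6a, the X-linked H3K27 demethylase, had 74.1 CPM in library 3 and 34.7 to 49.4 CPM elsewhere. Both X-linked genes are known to be expressed also from the inactive X. The same library had 524.6 CPM of Xist, the RNA that coats the inactive X, against 0 to 2.02 CPM in the 18 others, and Uty, Ddx3y and Eif2s3y, all Y-linked, had at most 1 read in it.

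This library moved the demethylase comparisons. With it, Kdm5d had a log2 fold change of -0.44 (SE 0.44) in aSyn Tg with age and -0.37 (SE 0.47) between genotypes at 15 mo, and without it -0.09 (SE 0.070) and -0.03 (SE 0.072). For Kdm6a both comparisons gave 0.14 with library 3 and -0.07 without it, and for Kdm5c 0.06 and 0.05 became -0.06 and -0.07. None of these passed the test with or without it. With 2 reads of Kdm5d beside 686 of Kdm5c in library 3, at most 2 reads of Kdm5c were counted on its paralog. Between genotypes at 3 mo, where the library plays no part, Kdm5c had 105.1, 97.7, 98.6, 100.7 and 98.9 CPM in aSyn Tg, against 111.6, 107.1, 108.4 and 108.1 CPM in Wt, without overlap (log2 fold change -0.12, SE 0.040, adjusted p = 0.223 by edgeR).

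**Figure D2:**
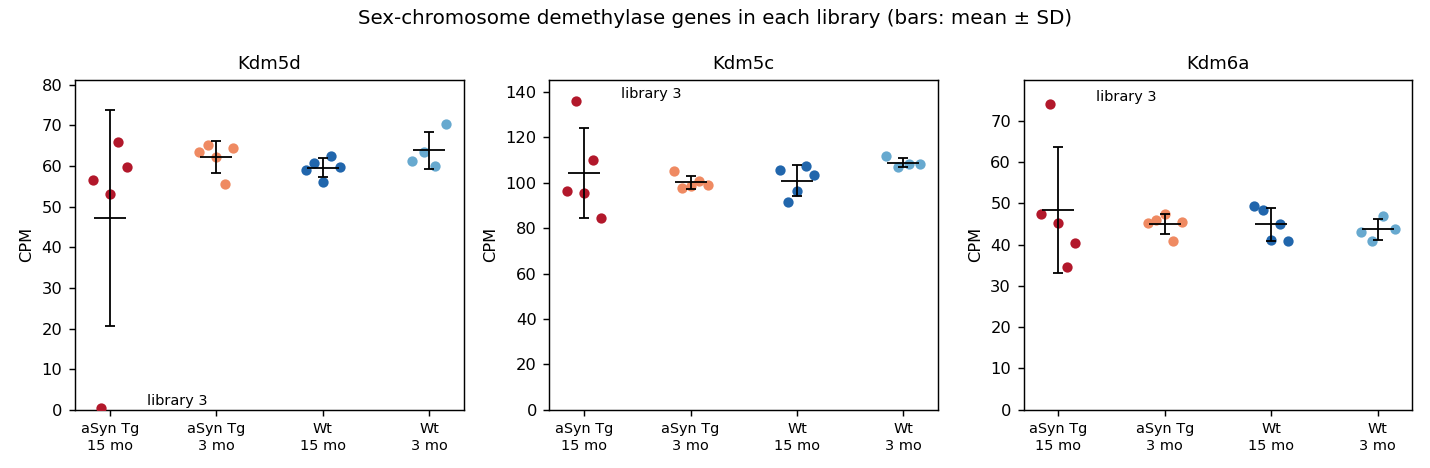
CPM of Kdm5d, Kdm5c and Kdm6a in each library (points) with the mean and SD of each group (bars). Library 3 of aSyn Tg 15 mo lies at 0.396, 135.9 and 74.1 CPM, outside the range of the 18 other libraries in each panel.

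Among the SWI/SNF subunits, the ATPase Smarca2 was lower in every aSyn Tg library than in every Wt library of its age, without passing the test. It had 547.6, 524.3, 543.8, 552.7 and 536.0 CPM in aSyn Tg 3 mo, against 553.0, 607.1, 595.6 and 604.5 CPM in Wt 3 mo (log2 fold change -0.12, SE 0.0365, adjusted p = 0.166 by edgeR). At 15 mo it had 555.0, 546.2, 519.9, 498.0 and 527.6 CPM in aSyn Tg, against 595.2, 575.8, 560.7, 604.0 and 602.1 CPM in Wt (-0.14, SE 0.048, adjusted p = 0.289 by edgeR, and -0.13 without libraries 3 and 5). The fold stayed under 1.2 at each age. Groups that did not overlap were seen for 1 chromatin gene in aSyn Tg with age (1.56%, against 3.47% of all genes), 4 in Wt with age (6.25%, against 5.2%), 4 between genotypes at 3 mo (6.25%, against 4.19%) and 4 at 15 mo (6.35%, against 2.77%). At 15 mo these were Smarca2, Setd7, the H3K4 methyltransferase Kmt2c (363.4 to 397.3 CPM in aSyn Tg, 409.3 to 419.9 CPM in Wt, log2 fold change -0.11, and -0.08 without libraries 3 and 5) and Arid3a (16.1 to 18.2 CPM in aSyn Tg, 14.5 to 15.7 CPM in Wt). The last 2 were chosen after their values were seen.

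Arid1a, the DNA-binding subunit of the canonical SWI/SNF complex, had 264.0, 259.6, 262.3, 259.9 and 260.1 CPM in Wt 15 mo, against 285.1, 283.0, 291.6 and 287.4 CPM in Wt 3 mo. The groups did not overlap, and the difference was small (log2 fold change -0.13, SE 0.036, adjusted p = 0.104 by edgeR). In aSyn Tg it had 278.7, 263.5, 298.8, 219.6 and 284.1 CPM at 15 mo, against 290.0, 259.9, 287.5, 284.8 and 280.7 CPM at 3 mo, and the lowest value was again library 5. Its log2 fold change between genotypes at 15 mo was 0.05, and 0.14 without libraries 3 and 5 (adjusted p = 0.339 by edgeR). Smarcb1, a core subunit, had a log2 fold change of 0.16 in aSyn Tg with age (adjusted p = 0.366 by edgeR, and 0.14 without libraries 3 and 5).

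Of the CHD and ISWI remodellers, Chd8, which represses Wnt target genes, was the one named between genotypes at 15 mo (218.1 to 230.7 CPM in aSyn Tg, 229.7 to 251.3 CPM in Wt, log2 fold change -0.11, adjusted p = 0.3497 by edgeR, and -0.10 without libraries 3 and 5). The CHD genes summed to 3086 to 3221 CPM in aSyn Tg 15 mo, 3088 to 3226 in aSyn Tg 3 mo, 3111 to 3241 in Wt 15 mo and 3068 to 3260 in Wt 3 mo. The ISWI ATPase Smarca1 had a log2 fold change of 0.08 between genotypes at 3 mo (adjusted p = 0.573 by edgeR).

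Arid5b, an ARID protein that partners the demethylase Phf2, came nearest to a call between genotypes. It had 64.2, 70.1, 61.4, 62.5 and 61.4 CPM in aSyn Tg 3 mo, against 83.7, 77.0, 72.0 and 70.4 CPM in Wt 3 mo. The highest aSyn Tg library lay just below the lowest Wt library, and the log2 fold change was -0.25 (SE 0.062, adjusted p = 0.0652 by edgeR). It passed without aSyn Tg 3 mo library 3 (-0.29, adjusted p = 0.0428 by edgeR) and without Wt 3 mo library 5 (-0.28, adjusted p = 0.0439 by edgeR). Between genotypes at 3 mo, oligodendrocyte precursor markers had a median log2 fold change of -0.16 with 3 of 4 at an unadjusted p up to 0.05 (summed level 239 to 270 CPM in aSyn Tg and 291 to 303 CPM in Wt), and endothelial markers -0.24 with 3 of 3 (207 to 237 CPM in aSyn Tg and 227 to 267 CPM in Wt). None of them passed the test, and their part in the 3 mo values of Arid5b, Smarca2 and Kdm5c was not tested. At 15 mo the Arid5b groups overlapped, with 71.7, 70.1, 72.9, 47.7 and 68.5 CPM in aSyn Tg and 82.1, 72.3, 74.9, 69.9 and 86.2 CPM in Wt.

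**Figure D3:**
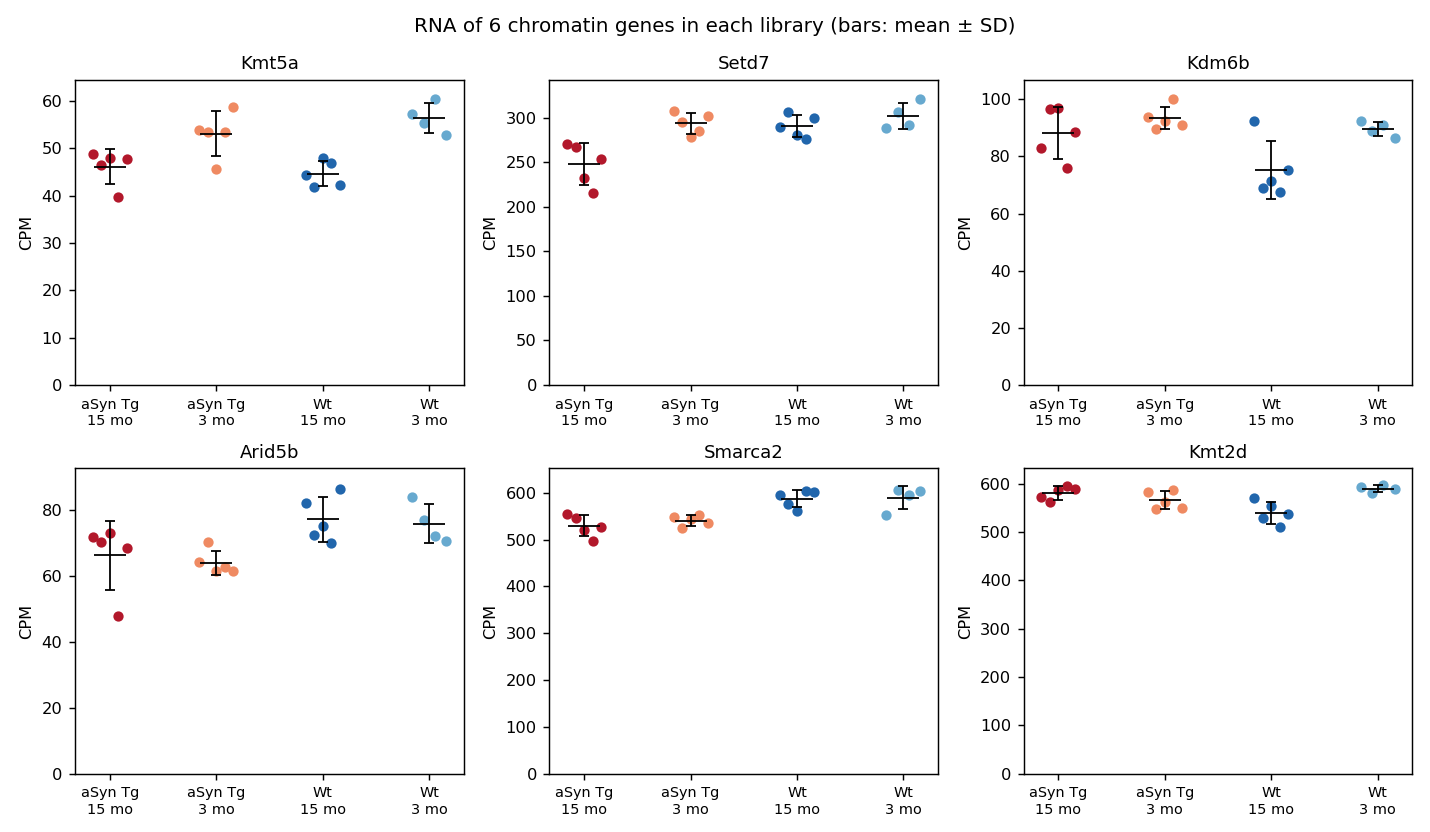
CPM of Kmt5a, Setd7, Kdm6b, Arid5b, Smarca2 and Kmt2d in each library (points) with the mean and SD of each group (bars). Kmt5a separates Wt 15 mo from Wt 3 mo, Setd7 lies lower in aSyn Tg 15 mo than in the other groups, and Smarca2 lies lower in aSyn Tg than in Wt at each age.

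A list of 72 other chromatin genes, which work with the set or write and erase further marks, also held no call. It takes in Polycomb, COMPASS, NuRD, ISWI, INO80 and SWI/SNF partners, further histone methyltransferases and demethylases, DNA methylation genes and acetyltransferases, and 66 were tested. None passed edgeR's test in any of the 4 comparisons or the interaction. At an unadjusted p of at most 0.05 there were 6 in aSyn Tg with age (9.09%, against 11.1% of all genes), 11 in ageing Wt (16.7%, against 15.6%) and 2 between genotypes at 3 mo (3.03%, against 12%). At 15 mo there were 4 (6.06%, against 11.2%), and for the interaction 3 (4.55%, against 10.5%). Ezh2, the Polycomb H3K27 methyltransferase, which was picked after its values were seen, had a log2 fold change of -0.24 in Wt with age (SE 0.089, adjusted p = 0.220 by edgeR).

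Most chromatin genes carried m6A peaks. In the authors' consensus peak lists, called once per group over its libraries, they had 160 peaks on 48 genes in aSyn Tg 15 mo, 161 on 49 in aSyn Tg 3 mo, 176 on 51 in Wt 15 mo and 170 on 50 in Wt 3 mo. The list taken as aSyn Tg 15 mo carries no group name and was assigned as the one left over. In all, 54 of 68 genes had a peak in at least 1 group, 45 in all 4 groups, and 14 in none. Merged across groups, the peaks formed 183 sites, of which 126 were in all 4 lists, 17 in 3, 17 in 2 and 23 in 1. A site listed for Chd1 in 3 lists (chr17:17387143-17387352) lay outside that gene (chr17:15704967-15772610) and was counted under the listed name. Of the 160 peaks in aSyn Tg 15 mo, 139 (86.9%) overlapped a peak in each of the other lists.

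Among genes with a mean count of at least 50, a peak was listed for 73.4% of the chromatin genes in aSyn Tg 15 mo (background 52.3%), 75.0% in aSyn Tg 3 mo (52.0%), 78.1% in Wt 15 mo (54.2%) and 76.6% in Wt 3 mo (53.8%). Peaks need reads and length to be called, and the chromatin genes had more of both, with a median count of 542.9 against 212.9 and a median exon length of 6633 nt against 3769 nt in all other genes. Among genes with a mean count of 1000 or more, all 20 chromatin genes had a peak in some group, against 80.7% of 959 others, and at 300 to 1000 it was 85.2% of 27 against 68.0% of 3266. Between 100 and 300 reads it was 58.3% of 12 against 55.5% of 4349, and between 50 and 100 reads 3 of 5 against 45.2% of 2447. When only genes with at least 5000 nt of exon sequence were kept, it was 20 of 20 against 88.6% in the highest class and 94.4% of 18 against 80.2% in the next.

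The abundant chromatin genes also carried more peaks each. With a mean count of 1000 or more, a chromatin gene with a peak had on average 4.84 peaks in aSyn Tg 15 mo, 4.94 in aSyn Tg 3 mo, 5.26 in Wt 15 mo and 4.90 in Wt 3 mo. Other genes of that count had 2.69, 2.79, 2.85 and 2.80 in the same groups, and those of at least 5000 nt had 3.08 in aSyn Tg 15 mo and 3.20 in Wt 3 mo. A pair of genes holds much of this. Kmt2d had 16 peaks in aSyn Tg 15 mo, 17 in aSyn Tg 3 mo, 17 in Wt 15 mo and 18 in Wt 3 mo, and Kmt2a had 12, 12, 14 and 12. Without both, the means were 3.77, 3.75, 4.06 and 3.78. These genes are long, with 19830 nt of exon for Kmt2d and 16470 nt for Kmt2a. Per kb, the chromatin genes of this class had 0.498 peaks in aSyn Tg 15 mo and 0.513 in Wt 3 mo. The others had 0.340 and 0.355. Without Kmt2a and Kmt2d the chromatin genes had 0.431 and 0.439. At 300 to 1000 reads the density was 0.347 and 0.355, against 0.349 and 0.358 in others. At 100 to 300 reads, with 4 chromatin genes holding a peak, it was 0.684 and 0.682, against 0.398 and 0.413. At 50 to 100 reads it was 0.335 and 0.276, against 0.441 and 0.441.

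**Figure D4:**
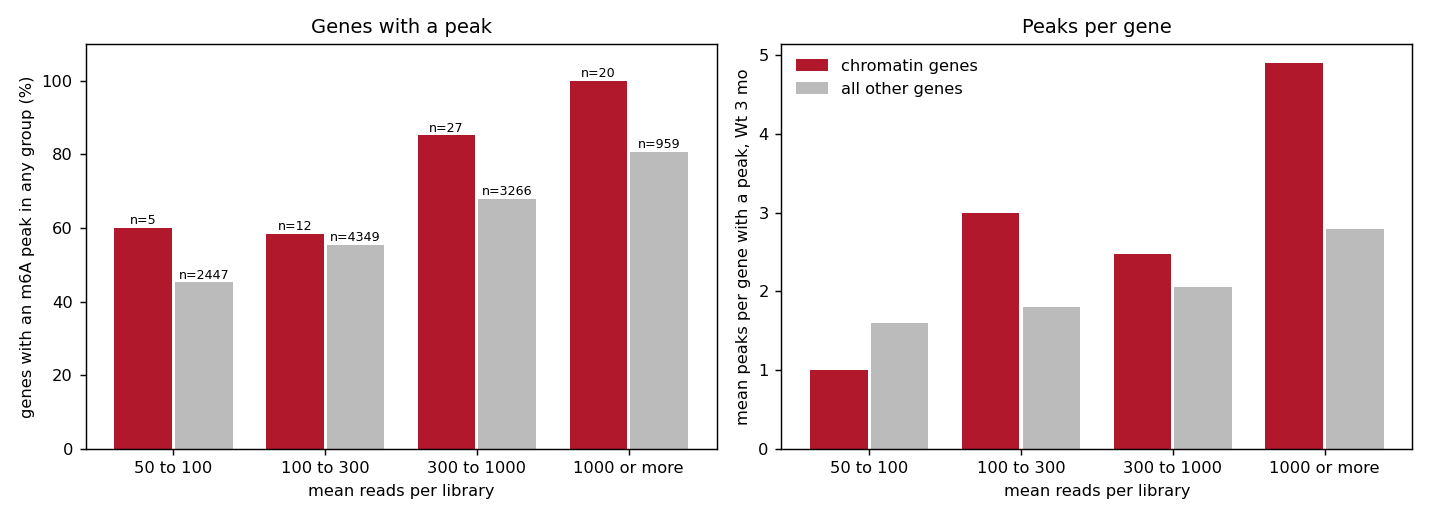
Share of genes with an m6A peak in any group (left, %) and mean number of peaks per gene with a peak in Wt 3 mo (right), for chromatin genes (red) and all other genes (grey) in classes of mean reads per library, with the number of genes above the left bars. All 20 chromatin genes with 1000 or more reads had a peak, and those had 4.90 peaks on average in Wt 3 mo against 2.80 in other genes.

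The peaks were not stronger than elsewhere. The median fold enrichment of chromatin gene peaks was 4.20 in aSyn Tg 15 mo, 4.07 in aSyn Tg 3 mo, 3.83 in Wt 15 mo and 3.67 in Wt 3 mo, and that of all other peaks was 5.23, 4.75, 4.95 and 4.73. The strongest was that of Chd7, a remodeller of enhancers, with its printed site at -216 nt from the stop codon. It had 16-fold in aSyn Tg 15 mo, 13.4 in aSyn Tg 3 mo, 15.7 in Wt 15 mo and 13.7 in Wt 3 mo. Arid1b, the alternative to Arid1a in SWI/SNF, followed with 14.3-fold in aSyn Tg 15 mo, 10.9 in aSyn Tg 3 mo, 11.6 in Wt 15 mo and 11.8 in Wt 3 mo. Chd9, a relative of Chd7, had 14.3-fold in aSyn Tg 15 mo, 13.0 in aSyn Tg 3 mo, 13.8 in Wt 15 mo and 10.3 in Wt 3 mo. Arid1a reached 14.1-fold in aSyn Tg 3 mo, the H3K4 methyltransferase Setd1a 13.6 and Setd5 13.4 in aSyn Tg 15 mo. The sites printed above lie in these peaks. The lists give 1 value per group, so these numbers have no replicate error.

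Most of the peaks lay in coding sequence. Their centre was coding for 81.9% in aSyn Tg 15 mo, 80.8% in aSyn Tg 3 mo, 83.5% in Wt 15 mo and 78.8% in Wt 3 mo, against 57.8%, 58.1%, 58.3% and 57.1% of peaks on other genes. Within 200 nt of the stop codon, where m6A is known to be most frequent, lay 13.1%, 14.3%, 13.1% and 14.1% of them, against 26.3%, 25.8%, 25.2% and 26.0%. The chromatin genes have a median coding length of 3938 nt against 1548 nt and a median 3′UTR of 1162 nt against 1165 nt. Restricted to genes with at least 3000 nt of coding sequence, the coding share was 84.7% in aSyn Tg 15 mo and 82.5% in Wt 3 mo, against 74.6% and 74.3%, and the share near the stop codon was 10.4% and 11.7%, against 14.9% and 15.0%. The gaps were smaller there than over all genes, and remained in the same direction. This limit did not match coding length, with a median over peaks of 6864 nt against 4515 nt in aSyn Tg 15 mo. With only the strongest peak of each gene, chromatin genes of any length were set against other genes within that limit. Near the stop codon lay 22.45% against 25.82% in aSyn Tg 3 mo and 23.53% against 24.43% in Wt 15 mo. The coding shares were 71.43% against 68.1% and 74.51% against 67.71%. The part of coding length in these gaps was not tested.

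On 9 genes with a mean count of at least 50, peaks were listed in only part of the groups. Kmt5a had a peak only in the 3 mo lists, in the 3′UTR at the site printed above, with 2.65-fold in aSyn Tg 3 mo and 2.47-fold in Wt 3 mo. Ehmt2 had none in aSyn Tg 15 mo, 2 in aSyn Tg 3 mo, 2 in Wt 15 mo and 1 in Wt 3 mo, up to 2.74-fold. Setd7 had 1 peak in aSyn Tg 15 mo, none in aSyn Tg 3 mo, 1 in Wt 15 mo and 3 in Wt 3 mo, up to 4.74-fold in its 5′UTR. Smarca4 had 1 in Wt 3 mo alone (1.64-fold), and Smarcc1, a SWI/SNF scaffold subunit, 1 in each Wt list (1.71-fold at 15 mo and 2.45-fold at 3 mo). Smarce1, another SWI/SNF subunit, had 1 of 1.97-fold to 2.10-fold in all lists but Wt 3 mo. The H3K36 demethylase Kdm2b had 1 in Wt 15 mo (6.08-fold), Setd6, a methyltransferase of non-histone proteins, 1 in aSyn Tg 15 mo (4.83-fold), and Kdm5d 1 in aSyn Tg 3 mo (4.37-fold) and 1 in Wt 15 mo (4.16-fold). A peak missing from a list was not called there, which does not show that the mark was absent.

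Between groups, m6A differed on 11 of the 68 genes in at least 1 of the 4 comparisons, in the authors' differential peak lists taking those with an FDR up to 0.05 and a change of 1.2-fold or more. These are Arid1a, Arid1b, Chd3, Chd4, Chd5, Ehmt2, Kdm6b, Kmt2a, Kmt2d, Setd2 and Smarca4. Shares are of genes with a consensus peak in either group. In aSyn Tg with age 5 of 51 such chromatin genes differed (9.8%, background 4.25%). With Smarca4, which had a consensus peak in neither group, 6 genes were hypomethylated at 10 peaks, and none was hypermethylated. In Wt with age 3 of 53 differed (5.66%, background 3.8%), all hypermethylated at 4 peaks. Between aSyn Tg and Wt, 5 of 52 differed at 3 mo (9.62%, background 3.16%), all hypermethylated at 8 peaks, and 5 of 52 at 15 mo (9.62%, background 3.65%). With Smarca4, again without a consensus peak in either group, 6 genes were hypomethylated at 8 peaks at 15 mo, and none was hypermethylated.

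Genes of like count are again the closer comparison. Among genes with a mean count of 1000 or more, a differential peak was found for 4 of 19 chromatin genes in aSyn Tg with age (21.1%, against 19.9% of all genes of that count), 3 of 20 in Wt with age (15.0%, against 18.1%), 4 of 20 between genotypes at 3 mo (against 15.4%) and 5 of 19 at 15 mo (26.3%, against 17.3%). In any of the 4 comparisons, 9 of the 20 chromatin genes of this count that had a peak differed (45.0%, against 43.4% of other genes), so the share was close to that of genes of like count. The more frequent direction was also that of all genes. Over all genes, 127 peaks were higher and 247 lower in aSyn Tg with age, 319 and 1 in Wt with age, 275 and 4 between genotypes at 3 mo and 77 and 236 at 15 mo. The comparisons share their groups in pairs, so their directions are not independent. In aSyn Tg 15 mo against Wt 3 mo, which differ in both genotype and age, 9 of 52 genes differed (17.3%, background 6.97%), 6 peaks higher and 3 lower, and in Wt 15 mo against aSyn Tg 3 mo 0 of 52 did (background 1.06%).

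Arid1a was listed in all 4 comparisons, at its first coding exons (chr4:133723848-133756499, minus strand, GRCm38, the far end varying between lists). The log2 change of this interval was -0.39 in aSyn Tg with age and 0.55 in Wt with age. Between aSyn Tg and Wt it was 0.42 at 3 mo and -0.51 at 15 mo. In the consensus lists the enrichment of the same interval was 10.6-fold in aSyn Tg 15 mo, 14.1 in aSyn Tg 3 mo, 12.4 in Wt 15 mo and 9.87 in Wt 3 mo, so aSyn Tg 3 mo was highest and Wt 3 mo lowest. The RNA of Arid1a did not pass the test in any of these comparisons.

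Kmt2d was the other gene listed in all 4 comparisons. In aSyn Tg with age it had 3 hypomethylated peaks with log2 changes of -0.65, -0.42 and -0.29, and in Wt with age 2 hypermethylated peaks of 0.33 and 0.31. Between genotypes at 3 mo it had 3 hypermethylated peaks of 0.56, 0.41 and 0.31. At 15 mo a single interval (chr15:98846756-98847221, minus strand, coding, 2.2-fold) had -0.71. Its RNA, by contrast, had a log2 fold change of 0.11 in that comparison.

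The other large differences lay at weakly enriched intervals. Kmt2a had a log2 change of -0.76 in aSyn Tg with age at a coding interval of 1.68-fold (chr9:44842316-44842675, minus strand). Smarca4 had -0.76 between genotypes at 15 mo at 1.41-fold, across the stop codon (chr9:21701116-21703061, plus strand), and -0.62 in aSyn Tg with age at 1.33-fold. Chd5 had -0.47 between genotypes at 15 mo at 1.27-fold. None of these intervals overlapped a consensus peak in any group.

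Chd3 and Ehmt2 had their largest differences at intervals with a consensus peak in every group but aSyn Tg 15 mo. Chd3 had -0.60 in aSyn Tg with age at a 3′UTR interval (chr11:69344111-69344381, minus strand) with 2.69-fold in aSyn Tg 3 mo, 2.34 in Wt 15 mo and 1.81 in Wt 3 mo. Ehmt2 had -0.57 in aSyn Tg with age at a coding interval (chr17:34903384-34905469, plus strand) with 2.71-fold in aSyn Tg 3 mo, 2.74 in Wt 15 mo and 2.58 in Wt 3 mo. The differential values pool the libraries of each group, so the lists cannot be given without aSyn Tg 15 mo libraries 3 and 5, and the part of these mice in the m6A differences was not tested. The remaining genes had log2 changes of 0.37 for Arid1b in Wt with age and -0.39 between genotypes at 15 mo, 0.34 for Chd4, 0.29 for Kdm6b and 0.48 for Setd2, which methylates H3K36, between genotypes at 3 mo.

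**Figure D5:**
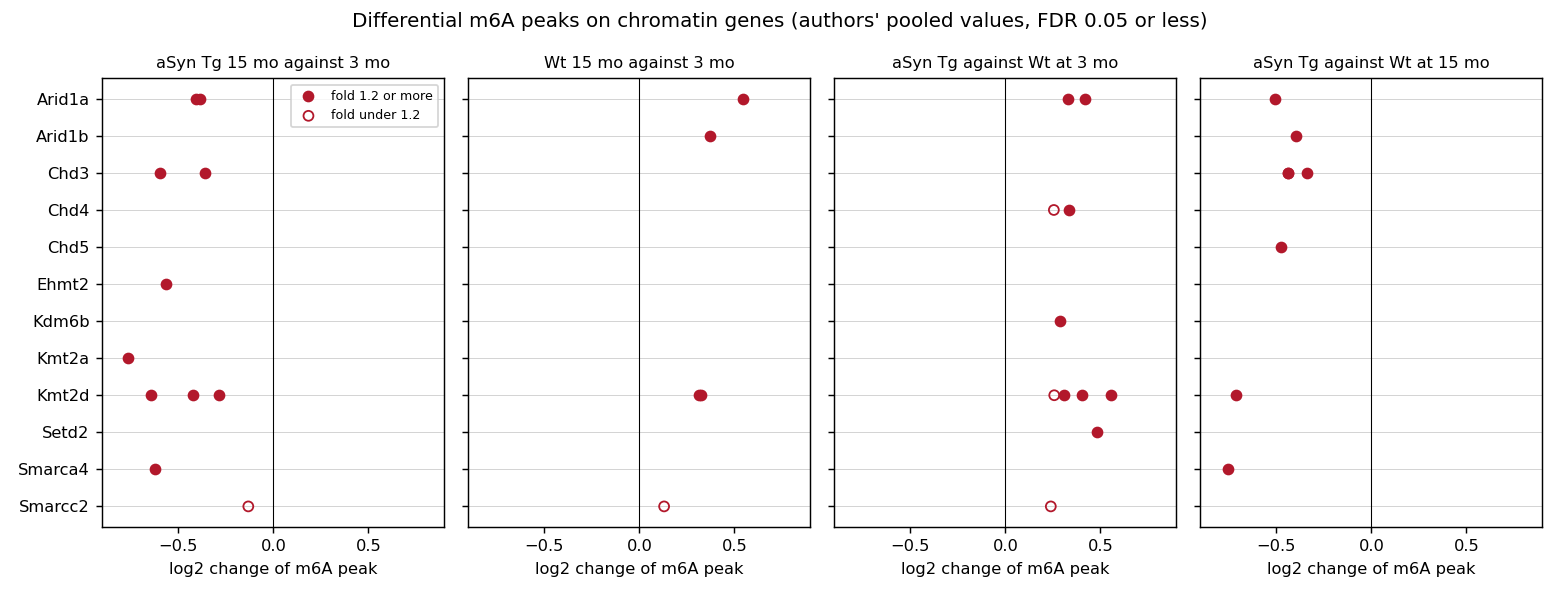
Log2 change of each differential m6A peak on a chromatin gene in the 4 comparisons, from the authors' pooled values at an FDR of at most 0.05, with filled points at a fold of at least 1.2 and open points below it. The points lie left of 0 in aSyn Tg with age and between genotypes at 15 mo, and right of 0 in Wt with age and between genotypes at 3 mo.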

How the data were processed

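Input libraries of midbrain were read from a table of 19 library columns. Reads were trimmed by the authors (Cutadapt), mapped to mm10 with STAR (the labels' processing notes name mm9 and DESeq) and counted them with featureCounts. Each deposited signal value is such a count after division by the size factor of its library. Whole reads were recovered for 100% of 392401 values (tolerance 0.01). In 2 aSyn Tg 15 mo libraries the size factor is too close to 1, and their reads came from the table of 15 mo mice. A further 38 library columns of other tables, the same libraries scaled separately, were not used, nor were the columns of the authors' own RNA comparisons (mean, log2 fold change, p-value and adjusted p-value). The level of the targeted gene is not reported here. The design assumed raw counts, and the recovered counts were tested. The depths per library are given above, and the mean count of 50 limits tests to genes of moderate expression. The methods speak of 5 mice per group, while no label says that the libraries came from separate animals, so p-values of the RNA tests measure the spread between these libraries. The FDR of the m6A differences comes from libraries pooled per group and does not measure that spread.

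RNA was tested in each pair of groups with the quasi-likelihood F test of edgeR 4.0.16 (TMM scaling, R 4.3.3), with Benjamini-Hochberg adjustment over every gene whose mean normalised count reached 50. A gene was called where the adjusted p was 0.05 or less and the change 1.2-fold or more. The interaction was fitted to all 4 groups. Alternatives were DESeq2 1.42.0, voom from limma 3.58.1, different scalings and count limits, 1 or 2 factors of unwanted variation, a single fit of all groups, a replicate block, each library left out and, chosen after seeing the data, libraries 3 and 5 of aSyn Tg 15 mo left out together.

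For m6A, the deposited fold enrichment sets immunoprecipitated over input reads of a peak as a ratio, from MeTPeak for the libraries of a group together, and from exomePeak for both groups of a comparison. The log2 change of a differential peak and its FDR, a score given as log10, were deposited by the authors from exomePeak, with 3 mo and Wt as controls. Peaks were kept with an FDR up to 0.05 and a change of 1.2-fold or more (tolerance on the log10 FDR 0.005). Of 56941 peaks, 56816 were placed on GENCODE M21 (GRCm38) and 56675 lay inside their named gene, so the coordinates were read as mm10. Positions used 1 transcript per gene. Python 3.11.15, pandas 2.3.3, pysam 0.24.0 and matplotlib 3.10.9 were used.

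The genes named are those that passed a test, the 3 with the smallest p in each direction and comparison, the most abundant of each role, the 6 with the strongest peaks, those with differential peaks, and those with peaks in part of the groups. The sex-chromosome genes and others noted as such were added after seeing values. The genes, lists and tests were chosen with earlier results of these data known.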

Additional observations from a re-analysis of the deposited data

Results flagged for a closer look

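Of 164 groups of 4 or 5 libraries checked with Dixon's test at the 95% level, 14 held a library far from the others, where chance gives about 1 in 20. Of these, 8 were in aSyn Tg 15 mo, 6 in library 5 and 2 in library 3.

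In library 5 of aSyn Tg 15 mo, the share of reads on the chromatin genes was 0.986%, against 1.112% to 1.139% in the other 4. Ehmt2 had 252.3 CPM there, against 161.9 to 170.2 in the others. Arid5b had 47.7 CPM against 68.5 to 72.9, Chd9 216.1 against 258.5 to 265.7, Kmt5a 39.7 against 46.6 to 48.9 and Smarcc1 93.0 against 121.0 to 129.3. This library also had the fewest reads of the 19, and the part of depth in these values was not tested.

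In library 3 of aSyn Tg 15 mo, Kdm5d had 0.396 CPM, against 53.2 to 65.8 in the other 4, and Xist had 524.6 CPM, against 0 to 1.89.

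Outside these libraries, Xist had 2.02 CPM in Wt 15 mo library 5, against 0.723 to 0.869 in the other 4, and Setd1b had 122.3 CPM in the same library, against 111.1 to 114.2. Smarcc2 had 537.3 CPM in Wt 15 mo library 5, against 560.5 to 566.2, and 525.1 CPM in Wt 3 mo library 2, against 573.2 to 574.3. Smarcc1 had 129.0 CPM in Wt 15 mo library 3, against 121.0 to 123.3, and Smarcb1 had 59.1 CPM in aSyn Tg 3 mo library 1, against 67.7 to 71.1.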

How the results depend on the processing

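Of 168 alternatives to the counts, medians and shares of the chromatin genes, 147 kept the value within its limits and 21 moved it. Some small medians changed sign. In aSyn Tg with age the median log2 fold change was -0.002, and 0.019 without aSyn Tg 15 mo library 5. In Wt with age it was -0.007, and 0.004 without Wt 15 mo library 3. The single call in Wt with age, Kmt5a, became 0 calls under RLE size factors, a mean count of at least 10, no filter on low counts and the replicate block. Its edgeR adjusted p over all alternatives that lost it was 0.0501 to 0.181. It stayed with DESeq2, voom, 1 or 2 factors of unwanted variation and all groups in a single fit. With each library left out, the count was 0 to 1 in Wt with age and 0 to 1 between genotypes at 3 mo, where the call was Arid5b, and 0 in the other comparisons.

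For named genes, 609 of 624 alternatives stayed on the same side of the threshold, 12 lost the Kmt5a call and 3 gave a call: Kdm6b without Wt 15 mo library 1, and Arid5b without aSyn Tg 3 mo library 3 or Wt 3 mo library 5. Same-numbered Wt libraries did not deviate together over all genes (correlations 0.06, -0.28, -0.09 and 0.03 for numbers 2 to 5). So few values cannot show whether the numbers stand for a pairing. Under the replicate block 4 genes of 10820 passed in place of 39. No paired analysis was possible for the other comparisons because the aSyn Tg columns carry numbers other than those of the labels. Over all genes tested, the calls moved more than those of the chromatin genes. In aSyn Tg with age 88 genes passed upward and 13 downward, against 159 in all with DESeq2, 218 and 256 with a mean count of at least 10 and no filter, and 181 and 230 with 1 and 2 factors of unwanted variation. In Wt with age 39 passed, 118 with DESeq2, 318 and 460 with the factors, 78 with all groups in a single fit and 4 without Wt 15 mo library 5. Between genotypes at 3 mo 95 passed, 63 with voom, 157 with no filter, 187 and 220 with the factors and 13 with all groups. At 15 mo 23 passed, 88 with DESeq2, 258 with 2 factors, 72 upward and 29 downward with all groups, and 8 without libraries 3 and 5. At a fold of at least 1.5, the genes with a differential m6A peak numbered 0 in Wt with age, 0 between genotypes at 3 mo, 2 at 15 mo and 4 in any comparison. At an FDR of at most 0.01 they numbered 2 between genotypes at 3 mo and 7 in any comparison. Within 100 nt of the stop codon lay 8.55% of peaks in place of 13.6% within 200 nt, and within 50 nt of the peak centre 47.4% held GGAC followed by any base but G, in place of 69.1% within 100 nt. Both follow from the shorter window. The median SE of a log2 fold change was 0.05 to 0.07 for the chromatin genes, and how much of it comes from the number of reads was not tested.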
